A study of Mus musculus with 4 samples.

Results

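The 38 interferon-stimulated genes described here were found by their symbols among the 56941 features of the deposited tables, and all 38 matched 1 feature each. They were followed through 4 single-cell RNA libraries made from the bone marrow of mice, with a single library for each group. Each measured its cells with droplet barcodes and unique molecular identifiers (UMIs), which count captured RNA molecules. WT c-Kit+ and KO c-Kit+ are marrow cells carrying Kit, the receptor by which stem and progenitor cells are usually enriched, from a wild type and from a knockout of the splicing factor Rbm5. WT MLL-AF9 and KO MLL-AF9 are primary leukaemia cells driven by the MLL-AF9 fusion oncogene, wild type and knockout for Rbm5, taken from transplanted mice at a shared endpoint; cells of the recipients were not told apart from donor cells. The labels give no strain, age, allele, Cre driver or number of animals. No group was replicated, so no p-value is given, and every interval is a 95% interval that covers counting error only.

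Interferons are secreted when cells sense viral or other misplaced nucleic acid. Type I interferons bind the receptor chains Ifnar1 and Ifnar2 and act through Jak1 and Tyk2 on a complex that holds Stat2 and Irf9 and binds interferon-stimulated response elements in the promoters of its targets. Interferon gamma binds Ifngr1 and Ifngr2 and induces the GTPases of the Gbp and Irg families. In marrow these genes are known as part of the antiviral state of mature myeloid cells, and interferon also acts on blood stem cells.

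The promoters of many members hold the repeated GAAA core of the response element. GAAANNGAAA, or TTTCNNTTTC on the other strand, was searched on both strands of the RefSeq promoter windows of GRCm38.p6, which run from 250 bases before to 50 bases after a gene's start. It was found in 18 of the 30 members with a window (60.0%), against 1079 of 27025 genes (3.99%). No other motif was searched, and overlapping matches are joined below. The windows of Slfn1, Slfn2, Slfn4, Irf7, Irf9, Ifit2, Cmpk2, Xaf1, Ifi44, Ifi47, Oasl1 and Oasl2 did not hold these letters, which says nothing about sites elsewhere. The stretches below are those of some of the 18 members, and are written 5′ to 3′ on the gene's strand with the matches in capitals. Those of the others, such as Oas1a, Stat2, Trim30a and Ifih1, are not printed. Isg15, Rsad2, Bst2 and Slfn8 lie on the minus strand, and Ifit1, Ifit3, Ifit3b, Slfn5 and Gbp2 on the plus strand.
Isg15, chr4:156200855-156200916: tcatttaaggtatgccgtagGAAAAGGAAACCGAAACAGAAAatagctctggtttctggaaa
Rsad2, chr12:26456543-26456592: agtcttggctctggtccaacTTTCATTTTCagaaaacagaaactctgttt
Bst2, chr8:71537567-71537622: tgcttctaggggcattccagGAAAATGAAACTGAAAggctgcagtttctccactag
Slfn8, chr11:83020829-83020878: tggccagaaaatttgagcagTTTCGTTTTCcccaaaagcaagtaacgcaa
Slfn5, chr11:82951927-82951976: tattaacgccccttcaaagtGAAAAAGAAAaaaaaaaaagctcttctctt
Gbp2, chr3:142620584-142620633: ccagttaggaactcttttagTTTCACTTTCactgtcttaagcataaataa
Ifit1, chr19:34640765-34640833: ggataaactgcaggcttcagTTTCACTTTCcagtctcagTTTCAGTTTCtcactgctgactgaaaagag
Ifit3, chr19:34583353-34583436: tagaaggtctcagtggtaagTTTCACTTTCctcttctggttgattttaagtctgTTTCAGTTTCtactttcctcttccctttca
Ifit3b, chr19:34607749-34607832: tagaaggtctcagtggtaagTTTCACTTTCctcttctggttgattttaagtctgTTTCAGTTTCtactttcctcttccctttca

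The 84 bases printed for Ifit3 and for its neighbour Ifit3b are the same letters. The Isg15 stretch holds 3 overlapping matches, the Bst2 stretch 2 overlapping matches and the Ifit1 stretch 2 separate ones.

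Cells with at least 500 genes, at least 1000 UMIs and at most 10% mitochondrial UMIs were kept, which left 12948 and 13708 cells in WT and KO c-Kit+ marrow and 13177 and 11778 in WT and KO leukaemia. They held 93004538 to 101255178 UMIs per library, and the median cell had 5352, 5428.5, 5946 and 7420.5 UMIs in the same order. Levels are in CPM, the UMIs of a gene in the kept cells scaled to the same total in every library, and are not scaled by gene length. Kit, the marker named by the c-Kit+ label, had 45.8, 43.9, 61.3 and 28.4 CPM in the same order and a UMI in 17.3%, 18.1%, 26.1% and 16.7% of cells. In the c-Kit+ libraries the gates described below put 38.8% and 36.96% of WT and KO cells among maturing and 19.3% and 17.6% among late neutrophils, which are not progenitors. Rbm5 stood at 75.5, 89.6, 160 and 116 CPM, so the UMIs of the targeted gene did not separate KO from WT, and KO is used here as the label gives it. The KO leukaemia library stood apart: 10 immediate early genes such as Fos, Jun and Egr1, which many stimuli and cell handling induce, summed to 14249 CPM there against 401 CPM in WT leukaemia and 2540 and 2196 CPM in the c-Kit+ libraries. Every value of KO leukaemia below rests on that 1 library. Pairs of libraries shared 40 to 59 cell barcodes, at most 0.448% of either library.

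All 38 members had UMIs in all 4 libraries, and together they made up 518 CPM in WT c-Kit+, 537 CPM in KO c-Kit+, 899 CPM in WT leukaemia and 1080 CPM in KO leukaemia. Most members were low: the median member stood at 5.42, 6.02, 12.5 and 10.97 CPM in that order, which is also the order of all lists of 4 values below. Slfn2 alone supplied 20.95%, 18.6%, 27.2% and 35.0% of the members' UMIs. Without Slfn2 and Slfn4, chosen after their values were seen, the other 36 members summed to 371, 398, 628 and 523 CPM, so that KO leukaemia was above WT leukaemia with these schlafens and below it without them.

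**Figure D1:**
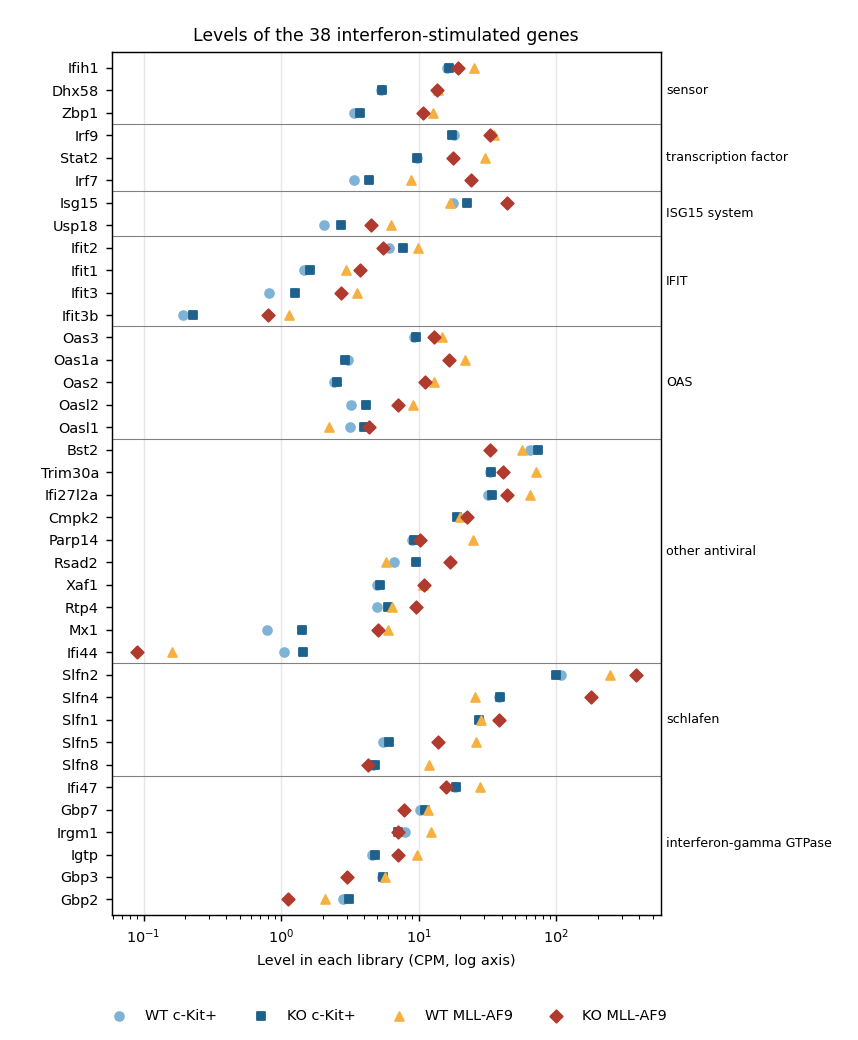
Level of each of the 38 genes in the 4 libraries (CPM, logarithmic axis), with genes grouped by role and 1 point per library. Slfn2 reaches 377 CPM and Slfn4 180 CPM in KO leukaemia, and Ifi44 lies lowest, at 0.161 and 0.0889 CPM in the leukaemias.

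The nucleic acid sensors were higher in leukaemia than in c-Kit+ marrow. Ifih1 (MDA5), the sensor of long double-stranded RNA, stood at 16.1, 16.7, 25.1 and 19.3 CPM. Dhx58 (LGP2), which modulates MDA5, had 5.29, 5.45, 13.7 and 13.5 CPM. Zbp1, a sensor of Z-form nucleic acid that can trigger cell death, had 3.37, 3.72, 12.8 and 10.8 CPM. In all 3 sensors the leukaemia libraries lay above both marrow libraries.

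The transcription factors of the pathway did not follow one pattern. Irf9, the DNA-binding partner of Stat2, stood at 18.1, 17.3, 35.3 and 32.8 CPM, high in both leukaemias. Stat2 had 9.67, 9.75, 30.1 and 17.7 CPM, highest in WT leukaemia. Irf7, the factor that amplifies type I interferon production, had 3.36, 4.38, 8.75 and 23.97 CPM, highest in KO leukaemia.

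Among the effectors, Isg15, the ubiquitin-like protein joined to other proteins in the antiviral state, stood at 17.7, 22.4, 16.8 and 43.8 CPM. Usp18, which removes Isg15 and dampens the type I receptor, ranged from 2.06 to 6.27 CPM. The IFIT genes, whose proteins bind foreign RNA, were scarce, with Ifit2 at 5.50 to 9.87 CPM and Ifit1, Ifit3 and Ifit3b between 0.192 and 3.76 CPM. The OAS enzymes activate RNase L. Oas1a had 3.06, 2.92, 21.6 and 16.7 CPM, although 56.1% of the 50-base stretches in its last 500 transcript bases also occur in Oas1g, so its assignment is uncertain. Oas2 had 2.44, 2.54, 12.9 and 11.1 CPM and Oasl2 3.22, 4.16, 9.09 and 7.11 CPM. For Oas1a, Oas2 and Oasl2 both leukaemias lay above both marrow libraries, whereas Oasl1 had 3.17, 3.996, 2.23 and 4.38 CPM with no such split.

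Of the other antiviral genes, Bst2 (tetherin), which holds budding virus at the cell surface, stood at 64.7, 73.4, 56.2 and 32.7 CPM, lowest in KO leukaemia. Trim30a had 32.9, 33.5, 71.5 and 41.2 CPM, with 19.9% of its 3′ stretches shared with Trim30d. Ifi27l2a had 32.1, 34.3, 63.9 and 44.0 CPM, and Parp14, an ADP-ribosyltransferase, 8.96, 9.24, 24.97 and 10.2 CPM. These last 3 genes were highest in WT leukaemia. Rsad2 (viperin), which makes a chain-terminating nucleotide, had 6.56, 9.62, 5.75 and 17.0 CPM. Its neighbour on chromosome 12, Cmpk2, a mitochondrial nucleotide kinase, had 21.9, 19.0, 20.1 and 22.3 CPM and varied little. Rtp4 and Xaf1 stayed between 4.94 and 10.9 CPM, Mx1 between 0.789 and 6.01 CPM, and Ifi44 was above 1 CPM only in the c-Kit+ libraries (1.06 and 1.43 CPM).

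The schlafens lie side by side on chromosome 11, from 82951349 to 83190216 in GRCm38, and divided sharply. Slfn2, which keeps T cells and monocytes quiescent, stood at 108, 99.6, 245 and 377 CPM. Slfn4 had 38.2, 39.1, 25.8 and 180 CPM, and Slfn1 27.4, 27.6, 28.5 and 38 CPM. These 3 were highest in KO leukaemia. Slfn5 had 5.46, 6.10, 26.0 and 13.9 CPM and Slfn8 4.63, 4.79, 11.8 and 4.29 CPM, both highest in WT leukaemia; 25.5% of the 3′ stretches of Slfn8 recur in Slfn9 or Slfn10-ps. The GTPases induced by interferon gamma, which attack the vacuoles of intracellular microbes, were led by Ifi47 at 18.3, 18.8, 27.7 and 15.8 CPM, with Gbp2, Gbp3, Gbp7, Irgm1 and Igtp between 1.12 and 12.2 CPM.

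The comparison of KO with WT leukaemia addresses, by its labels, the knockout of Rbm5 in leukaemia; the UMIs of Rbm5 (116 and 160 CPM) do not check those labels. Slfn4 showed the largest ratio among the members, 6.95 times its WT level (6.66 to 7.26), from 25.8 to 180 CPM. Rsad2 was 2.95 times higher (2.68 to 3.26), Irf7 2.74 times (2.53 to 2.97) and Isg15 2.62 times (2.47 to 2.77). Slfn8 stood at 0.363 of its WT level (0.324 to 0.406) and Parp14 at 0.408 (0.379 to 0.439). The list as a whole lay close to all genes: of 31 members with a mean of at least 5 CPM in these libraries, 9 were higher and 22 lower in KO, with a median log2 ratio of -0.31 against -0.38 over all 9901 genes measured so. Of all genes 74.6% were lower.

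On the log2 scale with 1 CPM added to each value, 4 of the 31 measured members were at least 2-fold higher (Slfn4, Rsad2, Irf7 and Isg15), where 5.5% of all genes were, and 2 were at least 2-fold lower (Slfn8 and Parp14), where 12.6% of all genes were. The median of all genes lay off 0 on this scaling. With median-ratio size factors it lay at -0.04, the median member at -0.00, and 15 members were higher and 16 lower, where 53.6% of all genes were lower. Under that scaling Slfn4, Rsad2, Irf7 and Isg15 were further apart (log2 ratios of 3.09, 1.72, 1.68 and 1.67), and Slfn8 and Parp14 fell short of 2-fold at -0.96 and -0.88.

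Members of one family parted. Of the schlafens, Slfn2 (log2 ratio of 0.62) and Slfn1 (0.41) were higher in KO with Slfn4, while Slfn5 (-0.86) was lower with Slfn8. The direction of Slfn1 depended on the cell mix. With both leukaemias weighted to the same mix of the gates described below, Slfn1 was lower in KO (-0.42). Slfn2 stood at 0.22 and Slfn5 at -0.84 under that weighting. Of the transcription factors, Stat2 stood at -0.73 and Irf9 at -0.10 while Irf7 stood at 1.36. Within the ISG15 system Usp18 was at -0.40 while Isg15 was at 1.34. The OAS members Oas1a, Oas2, Oas3 and Oasl2 lay between -0.35 and -0.18, all 4 above the median of all genes but below 0. With median-ratio size factors Oas2 (0.12) and Oas3 (0.15) were above 0 and Oas1a (-0.02) and Oasl2 (-0.00) were not. The sensors Ifih1 (-0.37), Zbp1 (-0.22) and Dhx58 (-0.02) were below 0 too, and with median-ratio size factors stood at -0.03, 0.10 and 0.31.

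The 4 measured GTPases of the interferon gamma group, Ifi47 (-0.77), Irgm1 (-0.71), Gbp7 (-0.54) and Igtp (-0.42), were all lower in KO leukaemia and all below the median of all genes. With median-ratio size factors they remained below 0, at -0.43, -0.39, -0.22 and -0.10. Bst2, Trim30a, Ifit2 and Ifi27l2a were lower as well (-0.76, -0.78, -0.74 and -0.53). Rtp4 (0.53), Cmpk2 (0.15) and Xaf1 (0.01) were the other measured members not below their WT level. Of the 7 members under 5 CPM, 2 stood above their WT level: Oasl1, with 2.23 CPM in the WT and 4.38 CPM in the KO library, and Ifit1, with 2.95 and 3.76 CPM.

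**Figure D2:**
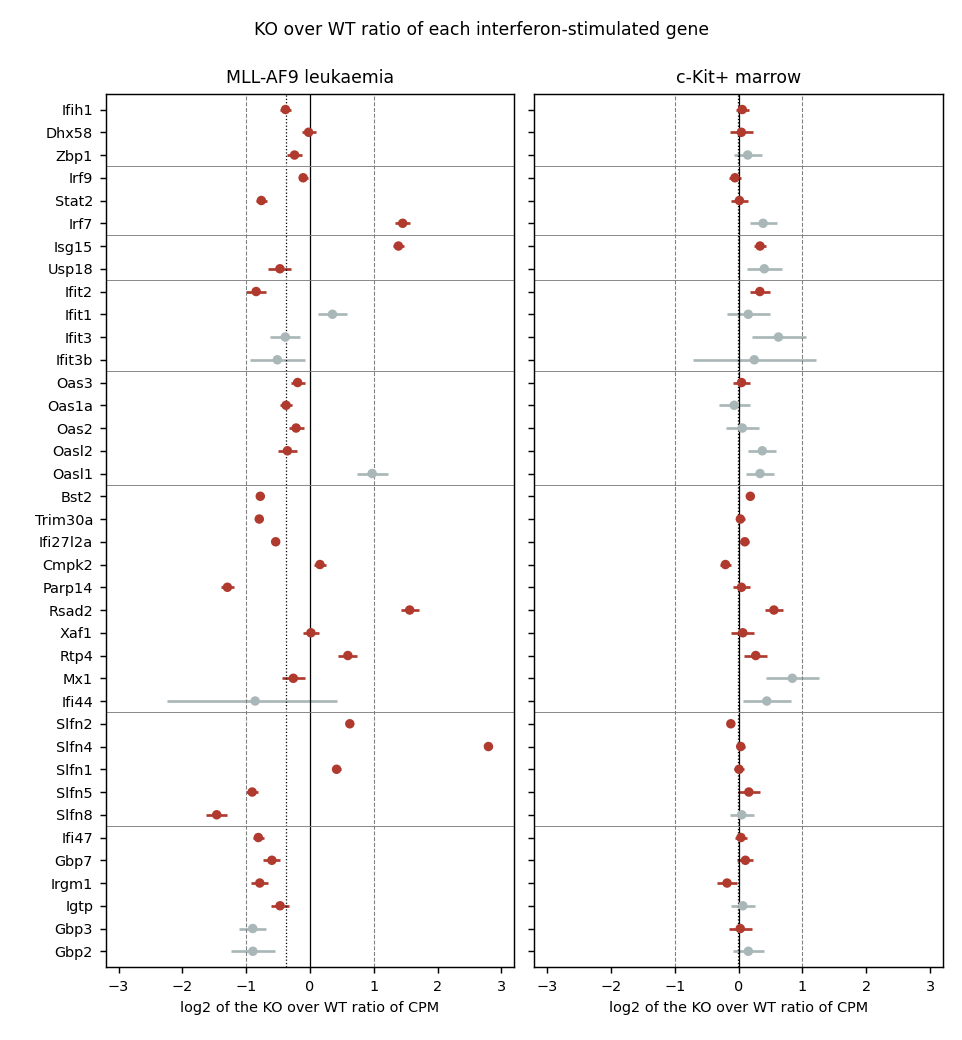
KO over WT ratio of CPM for each gene (log2 axis) in leukaemia (left) and in c-Kit+ marrow (right), with 95% counting intervals as bars. Red points are members with a mean of at least 5 CPM and grey points those below it, dashed lines mark 2-fold and the dotted line the median of all genes; in leukaemia Slfn4, Rsad2, Irf7 and Isg15 lie beyond 2-fold on the higher side and Slfn8 and Parp14 on the lower side, and no red point does so in c-Kit+ marrow.

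Several features of the KO leukaemia library moved with these values. The 6 markers of maturing neutrophils (such as Ltf, Camp and Ngp) were all higher in KO and summed to 41264 CPM against 18837 CPM in WT, and 6 of 7 late neutrophil markers (such as Cxcr2 and Retnlg) were higher, with sums of 1695 and 975 CPM. All 8 erythroid markers were higher (273 and 93.7 CPM), all 7 macrophage markers lower (97.5 and 236 CPM) and all 7 B cell markers lower (17.0 and 64.9 CPM). The part of these markers, of the immediate early genes and of depth in the members' values was not tested. More cells of a type and more RNA per cell cannot be told apart in a library's sum, so the same ratios are given below within marker gates.

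In c-Kit+ marrow, where the comparison asks the same of non-leukaemic cells, no measured member reached 2-fold in either direction, and 0.0628% of all 9555 genes were 2-fold higher and 0.0314% 2-fold lower. Of 23 measured members, 19 were above their WT level and 4 below it, with a median log2 ratio of 0.04 against -0.01 for all genes. With median-ratio size factors 15 were above and 8 below. Of all genes 47.6% were above, or 38.1% with median-ratio size factors. Rsad2 had the highest ratio of the measured members (1.47, 1.33 to 1.63), followed by Isg15 (1.26, 1.18 to 1.35) and Ifit2 (1.26, 1.13 to 1.41). Cmpk2 had the lowest (0.867, 0.814 to 0.923). Slfn4, the member with the widest ratio in leukaemia, stood at 1.02 (0.978 to 1.07) and Irf7, at under 5 CPM, at 1.30 (1.13 to 1.51). Among c-Kit+ monocyte-gated cells Rsad2 had 56 UMIs in KO and 18 in WT (2.71 times, 1.57 to 4.89). The counts of the scarce members were small, as for Mx1 at 0.789 and 1.41 CPM and Ifit3 at 0.821 and 1.27 CPM.

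WT leukaemia against WT c-Kit+ marrow asks how the list differs between leukaemic and normal marrow, and it uses the same WT libraries as the comparisons above. Of 30 measured members 25 were higher in leukaemia, and the median log2 ratio was 0.94 against 0.28 for all genes (0.60 against -0.06 with median-ratio size factors, which left 22 higher and 8 lower). Of all genes 66.6% were higher, or 47.0% with median-ratio size factors. Members at least 2-fold higher numbered 12, where 16.4% of all genes were, and none was 2-fold lower, where 5.89% of all genes were. They were Oas1a (7.06 times, 6.24 to 8.02), Oas2 (5.27), Slfn5 (4.76), Zbp1 (3.79), Stat2 (3.11), Oasl2 (2.82), Parp14 (2.79), Irf7 (2.61), Dhx58 (2.60), Slfn8 (2.55), Slfn2 (2.26) and Trim30a (2.18). Slfn4 (0.676), Bst2 (0.869), Rsad2 (0.877), Cmpk2 (0.914) and Isg15 (0.945) were not above the marrow level. Mx1 went from 0.789 to 6.01 CPM, under the level at which members were counted.

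In the KO pair, leukaemia against c-Kit+ marrow gave a median of 0.63 over 28 measured members against -0.04 for all genes, and 24 members were higher, where 47.9% of all genes were. Slfn4, Slfn2, Irf7, Oas1a, Oas2, Zbp1, Dhx58 and Slfn5 were the 8 at least 2-fold higher, where 12.7% of all genes were. Bst2, at 0.446 of its marrow level (0.428 to 0.465), was the 1 member at least 2-fold lower, where 12.6% of all genes were. Set side by side, the leukaemia over marrow ratio of Slfn4 was 0.676 in WT and 4.60 in KO, and that of Irf7 2.61 and 5.47. The ratio of Parp14 was 2.79 in WT and 1.10 in KO. The WT and KO pairs share no library with each other but do share them with the KO comparisons, so these values are not independent of those above.

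Cells were sorted into types by the number of distinct marker genes detected in a cell, none of them a member of the list. The types are named as gates, since a class of this kind is a range along a count and not a pure cell type. Late neutrophil, monocyte, macrophage and plasmacytoid dendritic gates needed 4 of 7 markers, neutrophil progenitors 4 of 5, maturing neutrophils 5 of 6, erythroid cells 4 of 8, and T or NK cells 3 of 9. In WT leukaemia 746 of the 1909 late neutrophil-gated cells were at the threshold and 1044 further cells were 1 marker short of it. In KO leukaemia the numbers were 1061 of 3695 and 1664. In the leukaemias the progenitor, maturing, late neutrophil and monocyte gates held a median of 3 to 5 of the 6 blast markers per cell, so these gates hold leukaemia cells with such markers. The late neutrophil gate took 14.5% of WT and 31.4% of KO leukaemia cells and the progenitor gate 17.0% and 7.06%, while 26.5% and 6.66% fell in no gate.

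The members' summed level differed widely between gates. Among gates with at least 50 cells in both libraries, in c-Kit+ marrow the plasmacytoid dendritic gate (88 and 101 cells) was highest, at 2158 CPM in the WT and 2541 CPM in the KO library, followed by macrophages (81 and 79 cells) at 1663 and 1265 CPM. Monocytes stood at 1085 and 1103 CPM and late neutrophils at 836 and 889 CPM. Maturing neutrophils had 403 and 402 CPM and neutrophil progenitors, the lowest of these gates, 343 and 340 CPM. In leukaemia the monocyte gate stood at 2048 CPM for WT and 1751 CPM for KO, late neutrophils at 1573 and 1443 CPM, maturing neutrophils at 582 and 875 CPM, and progenitors at 491 and 552 CPM. Monocytes thus held 3.17, 3.24, 4.17 and 3.17 times the members' level of progenitors, in the order of libraries used above.

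Different members led each gate. In plasmacytoid dendritic cells, known as the main producers of type I interferon, Bst2 alone made up 1375 and 1718 CPM of c-Kit+ WT and KO cells, against 13.7 and 21.6 CPM in late neutrophils. Bst2 is a known surface antigen of mouse plasmacytoid dendritic cells. Ifi27l2a was led by monocytes, at 246 and 239 CPM in c-Kit+ and 380 and 272 CPM in leukaemia. Slfn5 was high in macrophages (111 CPM in the WT and 84.5 CPM in the KO c-Kit+ library) and had 50.9 and 47.6 CPM in c-Kit+ monocytes and 138 and 90.9 CPM in those of WT and KO leukaemia, against 0.609 CPM in the progenitors of WT c-Kit+ marrow. Slfn1, Slfn4 and Oas3 were highest in late neutrophils in all 4 libraries: in WT c-Kit+ marrow Slfn1 went from 0.609 CPM in progenitors to 27.9 CPM in maturing and 119 CPM in late neutrophils, Slfn4 from 4.34 to 51.6 and 131 CPM, and Oas3 from 0.304 to 6.57 and 34.7 CPM. Of the interferon gamma GTPases, Ifi47, Gbp7 and Igtp were highest in T or NK cells, known makers of that cytokine, in all 4 libraries, at 104, 49.3 and 21.4 CPM in WT c-Kit+ marrow. Gbp2 was so in 3 libraries, with macrophages higher in WT leukaemia (68.6 CPM), whereas Irgm1 and Gbp3 had no single leading gate.

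Erythroid-gated cells held Isg15 and Rsad2 at levels above those of the neutrophil and monocyte gates in all 4 libraries. Isg15 stood at 52.8 and 78.2 CPM in the erythroid cells of WT and KO c-Kit+ marrow, and at 97.5 and 316 CPM in those of WT and KO leukaemia. Rsad2 stood at 25.4 and 38.9 CPM in c-Kit+ and at 135 and 188 CPM in leukaemia. In WT c-Kit+ macrophages Rsad2 was higher still (42.8 CPM). These cells numbered 876, 1178, 79 and 235 in the 4 libraries, so the leukaemia values rest on few cells, with 83 and 908 UMIs of Isg15 and 115 and 539 UMIs of Rsad2.

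**Figure D3:**
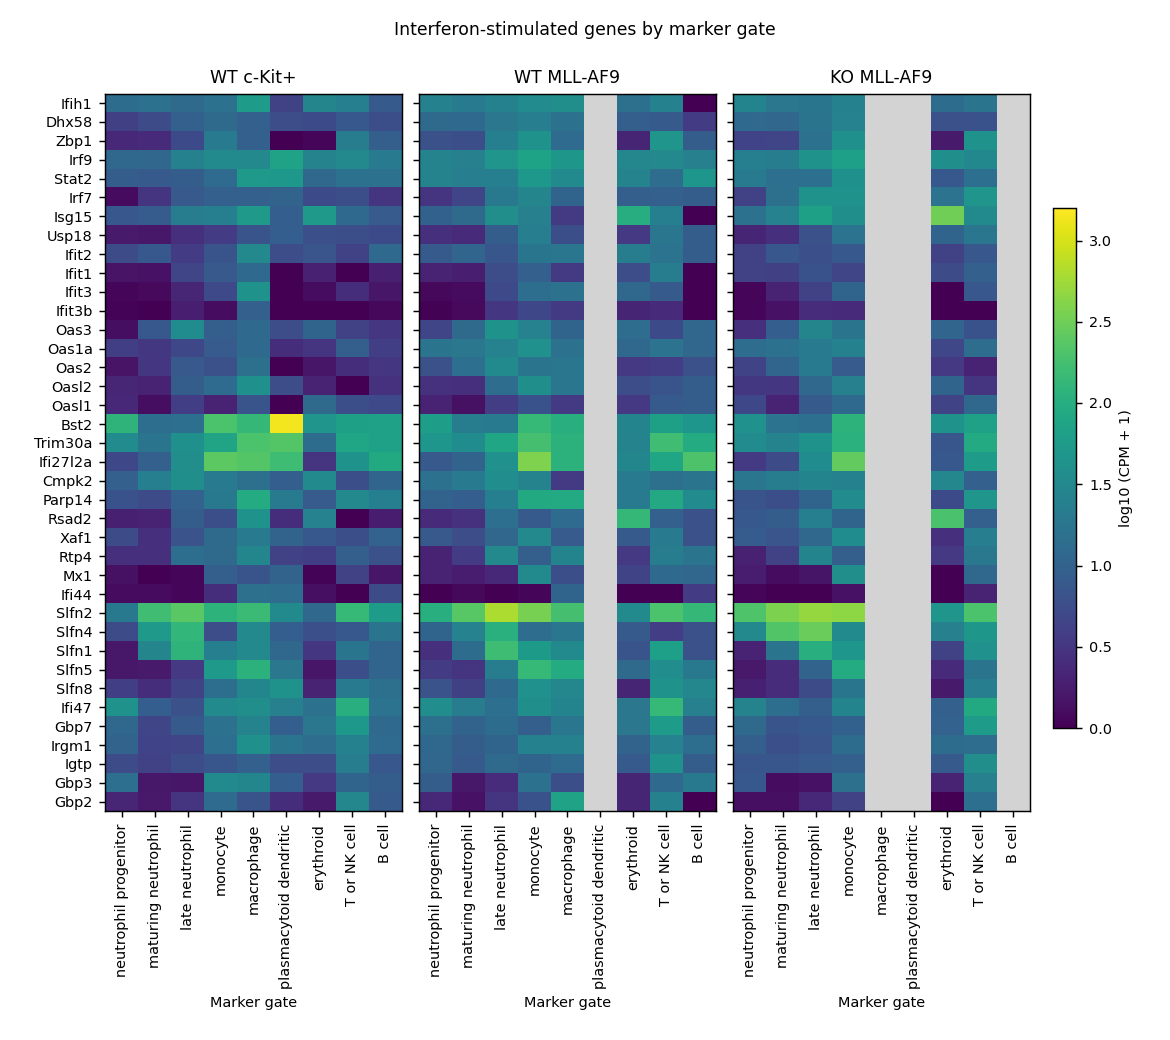
Level of each member (rows) in marker-gated cells (columns) of WT c-Kit+ marrow, WT leukaemia and KO leukaemia, as the colour of log10 (CPM + 1); grey columns are gates with under 50 cells. Bst2 is brightest in plasmacytoid dendritic cells, Isg15 and Rsad2 stand out in the erythroid gate, and Slfn2 is bright in all myeloid gates of leukaemia.

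Within gates, the ratios of the 2-fold members between KO and WT leukaemia differed in size. For Slfn4 the level was higher in each later neutrophil gate of both libraries, and in KO at each: 31.2 against 9.79 CPM in progenitors (3.18 times, 2.69 to 3.77), 211 against 25.1 CPM in maturing neutrophils (8.40 times, 7.81 to 9.05), and 297 against 108 CPM in late neutrophils (2.75 times, 2.57 to 2.95). In monocytes Slfn4 had 31.6 against 12.7 CPM (2.48 times, 1.97 to 3.15). Slfn4 also had 48.1 against 2.84 CPM in T or NK cells, where the 6 maturing neutrophil markers summed to 9032 CPM in KO and 4825 CPM in WT, with a median of 4 and 2 of them per cell. Such cells should lack neutrophil RNA, so this Slfn4 value is not read as expression by them. The KO values of Slfn4 in progenitors and monocytes lie below it, and in these gates the same 6 markers summed to 6262 and 6361 CPM in KO against 2635 and 3248 CPM in WT. The Slfn4 ratios of these 2 gates are therefore not read as a difference in expression. The KO values in maturing and late neutrophils lie above the level in T or NK cells. Doublet calls covered 14.8% and 14.6% of the T or NK-gated cells of WT and KO leukaemia. The part of doublets and of RNA from other cells was not tested in any gate, for Slfn4 or for the members below.

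Irf7 was higher in KO within maturing neutrophils (14.4 against 3.64 CPM, 3.95 times, 3.23 to 4.86) and late neutrophils (42.2 against 18.9 CPM, 2.24 times, 1.89 to 2.66). In monocytes the Irf7 ratio was smaller, at 1.57 (1.33 to 1.86). Isg15 was 1.65 times higher in progenitors, 2.14 times in maturing neutrophils, 1.74 times in late neutrophils, 1.62 times in monocytes and 3.24 times (2.59 to 4.11) in erythroid cells. Rsad2 was 4.14 times higher in maturing neutrophils, at a mean under 5 CPM (7.82 against 1.89 CPM), and 1.65 times in late neutrophils, while in monocytes its interval reached 1 (1.40, 0.992 to 2.004). Slfn2 differed in direction between gates, at 0.782 of the WT level in late neutrophils (0.758 to 0.808) and 1.57 times it in maturing neutrophils (1.53 to 1.62). All genes also lay below 0 within these gates. Their median log2 ratio was -0.24 in progenitors, -0.30 in maturing neutrophils, -0.28 in late neutrophils, -0.22 in monocytes and -0.44 in erythroid cells. The Slfn2 value in late neutrophils thus lay near that of all genes.

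Parp14 was lower in KO in progenitors (0.609), maturing neutrophils (0.607), late neutrophils (0.425) and monocytes (0.381, 0.333 to 0.436). Slfn8 stood at 0.394 in late neutrophils and 0.410 in monocytes. These ratios stand beside the medians of all genes in the same gates, given above. Both leukaemias were also weighted to the same mix of 8 classes. These were the progenitor, maturing and late neutrophil, monocyte, erythroid and T or NK gates, cells in more than one gate and cells in no gate. The weighting does not match cell types within a class, such as among cells in no gate. The log2 ratios were then 2.03 for Slfn4, 1.11 for Irf7, 0.92 for Isg15 and 0.87 for Rsad2, so the last 2 fell under 2-fold. Those of Slfn8 and Parp14 were -1.16 and -1.13. Among monocyte-gated cells WT leukaemia against WT c-Kit+ marrow gave a median log2 ratio of 1.20 over 35 members, against 0.17 for all genes, with 30 members higher.

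T or NK-gated cells were the c-Kit+ gate in which the members differed most between KO and WT, although few cells were behind it. In 160 KO and 129 WT cells 25 of 31 measured members were higher in KO, with a median log2 ratio of 0.65 against 0.02 for all genes. Isg15 had 28 UMIs in KO and 7 in WT (43.8 and 11.5 CPM, 3.81 times, 1.63 to 10.3), and Ifi27l2a 74 and 26 UMIs (116 and 42.8 CPM, 2.71 times, 1.71 to 4.42). The gates were not alike: 46 of the KO and 13 of the WT cells were at the marker threshold, and the median KO and WT cell held 3 and 2 of the 6 maturing neutrophil markers, which summed to 17553 and 26679 CPM. Their part in the difference was not tested.

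Some cells detected many members at once. To set libraries of different depth side by side, each cell was thinned to 2000 UMIs, which left out 1432, 1781, 1190 and 514 shallower cells. At that depth 2.12% (1.86 to 2.40) of WT c-Kit+ cells had UMIs of 5 or more members, 2.57% (2.30 to 2.87) of KO c-Kit+ cells, 6.86% (6.41 to 7.32) of WT leukaemia cells and 5.84% (5.42 to 6.29) of KO leukaemia cells. Both leukaemias thus lay above both marrow libraries. For 10 or more members the shares were 0.156%, 0.394%, 1.001% and 0.763%, from 18, 47, 120 and 86 cells. Unthinned, 13.4%, 13.8%, 29.5% and 33.5% of cells had 5 or more members, and KO leukaemia stood above WT leukaemia. Without Slfn2 and Slfn4 the thinned shares were 1.35%, 1.76%, 4.77% and 3.38%.

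**Figure D4:**
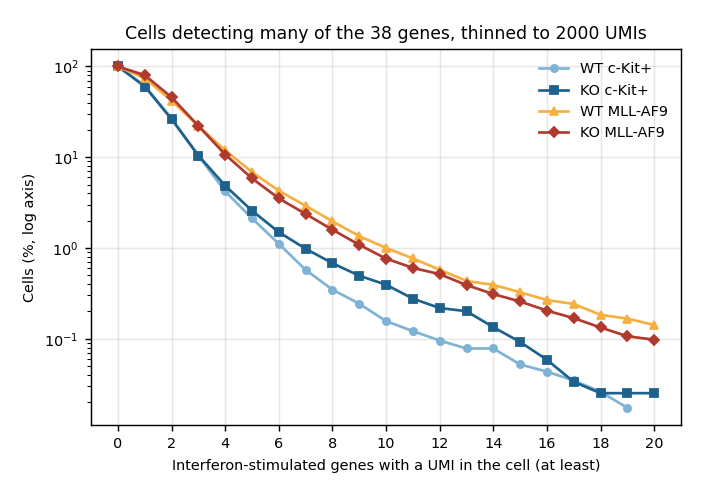
Share of cells (logarithmic axis) with UMIs of at least the given number of the 38 genes, each cell thinned to 2000 UMIs, with 1 line per library. At 5 genes the lines stand at 2.12% and 2.57% in WT and KO c-Kit+ marrow and at 6.86% and 5.84% in WT and KO leukaemia, and the leukaemia lines stay above the marrow lines to the right.

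The gates differed more than the libraries in this share. Of monocyte-gated cells 16.4%, 14.03%, 27.2% and 21.3% had 5 or more members after thinning, of late neutrophils 3.02%, 4.33%, 9.33% and 7.97%, and of neutrophil progenitors 0.0846%, 0.233%, 1.09% and 0.607%. Before thinning the median progenitor-gated cell had 10156, 11899, 10412 and 13003 UMIs and the median monocyte-gated cell 10126, 6880, 5772 and 7967 UMIs. In c-Kit+ T or NK cells the share was 3.48% in WT (0.956 to 8.67) and 13.1% in KO (7.98 to 19.97). Monocytes made up 8.33% of thinned WT leukaemia cells and 33.1% of its cells with 5 or more members, and in KO leukaemia 8.75% and 31.9%. Doublet calls covered 2.05%, 3.91%, 3.89% and 3.04% of the thinned cells with 5 or more members and 5.004%, 3.47%, 3.36% and 3.28% of the rest. Without thinning, they covered 11.2%, 8.6%, 11.8% and 13.4% of cells with 10 or more members. Of the other unthinned cells they covered 4.37%, 3.003%, 2.58% and 2.53%. Unthinned cells with many members thus held more doublet calls than the rest in every library.

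A further 34 interferon-stimulated genes, which took no part in choosing the thinned cells with 5 or more members, were higher in them than in the other cells of the library. The ratio of their summed CPM was 3.37 (3.21 to 3.53) in WT c-Kit+, 3.92 (3.76 to 4.08) in KO c-Kit+, 2.88 (2.82 to 2.94) in WT leukaemia and 2.78 (2.70 to 2.86) in KO leukaemia. Cells are not replicates, and both gene sets are counted in the same cells, so these ratios describe the 4 libraries. The chosen cells also differed in gates: in WT c-Kit+ marrow monocytes were 22.5% of them and 2.91% of all thinned cells. The 34 genes summed to 2430 CPM in the monocytes and 621 CPM in the maturing neutrophils of that library. Before thinning the median chosen cell had 3794, 3786, 4526 and 6176.5 UMIs, against 6389, 6728, 6632 and 7772 in the rest. The part of the gates and of depth in these ratios was not tested.

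Members differed in how far they kept to such cells. For each gene in turn, cells were taken that held UMIs of at least 4 of the other 37 members after thinning. They made up 3.01% to 4.19% of WT c-Kit+ cells and 8.37% to 11.9% of WT leukaemia cells, depending on the gene left out. Ifit3 had 73.9%, 77.5%, 97.1% and 91.8% of its UMIs in these cells, and Ifit1 56.9%, 75.4%, 93.8% and 84.6%. Usp18 (43.1% to 69.6%), Mx1 (58.2% to 64.0%), Oasl2 (48.7% to 76.9%) and Slfn5 (53.0% to 69.9%) were concentrated as well. These shares were taken over all cells of a library and not within gates. Slfn5, for one, was higher in monocytes and macrophages than in progenitors, and the part of the gates in these shares was not tested. The values of Ifit3 rest on 17 UMIs in such cells of WT c-Kit+ marrow and 132 in those of WT leukaemia.

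Slfn2 and Slfn4, the most abundant members in KO leukaemia, were the least concentrated by the median over the libraries. Slfn2 had 5.49%, 6.80%, 15.1% and 10.8% of its UMIs in cells holding the others, and its level there was 1.64 to 1.94 times that of the remaining cells. Slfn4 had 5.60%, 8.32%, 21.7% and 12.5%, and a level of 1.55 to 2.20 times. Isg15 stood between these extremes with 39.9% to 47.2% of its UMIs and a level of 6.11 to 18.9 times, and Rsad2 had 35.4% to 57.8%. Bst2 and Cmpk2 lay low with 9.81% to 32.5% and 13.1% to 24.4%.

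**Figure D5:**
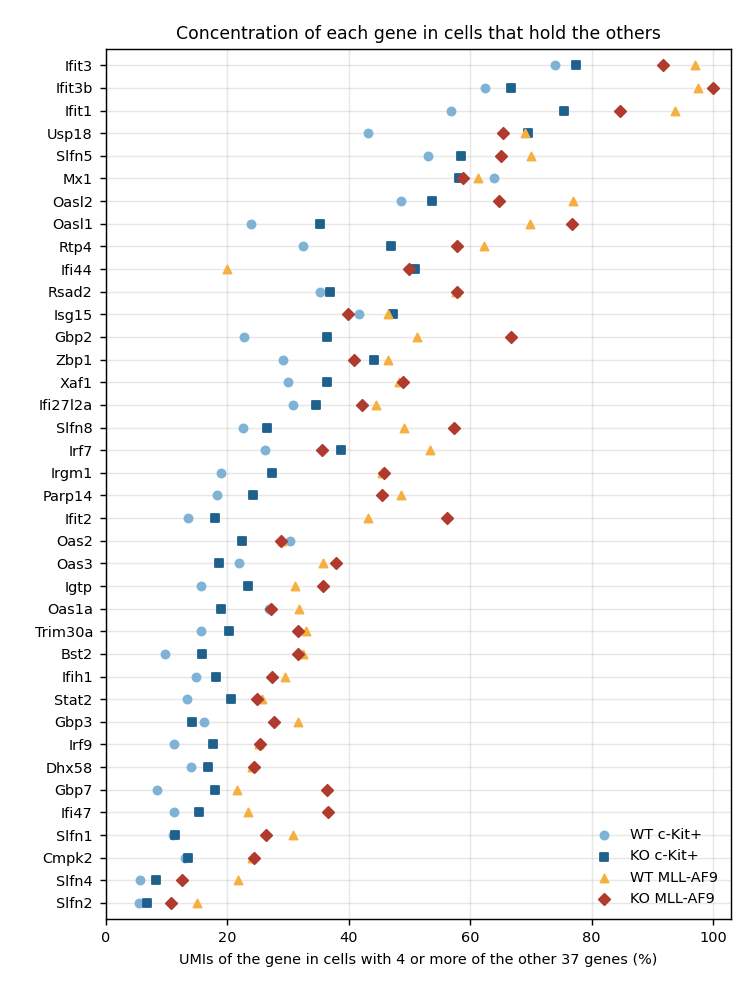
Share of each gene's UMIs (horizontal axis, %) that lie in cells with UMIs of 4 or more of the other 37 genes, each cell thinned to 2000 UMIs, with 1 point per library and genes ordered by their median. Ifit3 lies at 73.9% to 97.1% and Slfn2 at 5.49% to 15.1%.

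The rest of the pathway was read from a list of 76 genes, of which 73 were found. No UMI of Ifnb1, Ifna1, Ifna2, Ifna4, Ifna5, Ifnl2 or Ifnl3, the listed type I and type III interferons, was counted in any library, which allows up to 3 counts or 0.0296 to 0.0323 CPM each. Ifng had 60 UMIs in WT c-Kit+, 75 in KO c-Kit+, 4 in WT leukaemia and 129 in KO leukaemia, of which 49, 58, 4 and 118 lay in T or NK-gated cells. These came from 32 of 129, 40 of 160, 4 of 128 and 41 of 123 such cells. Ifng was thus counted more often in KO than in WT leukaemia.

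The 4 chains of the type I and interferon gamma receptors were higher in both leukaemias than in marrow. Ifnar1 stood at 15.1, 15.0, 41.1 and 22.9 CPM, Ifnar2 at 47.7, 44.1, 85.6 and 82.7 CPM, Ifngr1 at 117, 119, 359 and 315 CPM and Ifngr2 at 27.9, 26.4, 69.4 and 40.0 CPM. Of the kinases, Jak1 had 168, 155, 192 and 230 CPM, Jak2 53.8, 51.6, 59.9 and 35.9 CPM, and Tyk2 12.4, 13.3, 29.2 and 12.98 CPM. Stat3, which other cytokines use, had 145, 140, 178 and 232 CPM.

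Between KO and WT leukaemia 55 of the 73 listed genes were measured, 9 higher and 46 lower (74.6% of all genes were lower), with a median log2 ratio of -0.61 against -0.38 for all genes. Of these, 2 (3.64%) were at least 2-fold higher, where 5.5% of all genes were, and 11 (20%) at least 2-fold lower, where 12.6% of all genes were. With median-ratio size factors 2 were 2-fold higher and 3 lower (5.45%, against 4.33% of all genes). The highest ratios were those of Socs1 (1.22), which blocks Jak kinases, the exonuclease Isg20 (1.17) and the phosphatase Ptpn2 (0.44), and the lowest those of Irgm2 (-1.79), Ifnlr1 (-1.52) and Trim34a (-1.36). Socs3, under the level needed, went from 0.817 to 5.77 CPM. Of the 34 other interferon-stimulated genes 29 were measured and 27 of them were lower in KO (74.6% of all genes were), with a median of -0.62. With median-ratio size factors 20 of the 29 were lower, with a median of -0.27, and 36 of the 55, where 53.6% of all genes were lower.

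In the other comparisons the pathway list gave a median log2 ratio of -0.04 in KO against WT c-Kit+ marrow, of 0.88 in WT leukaemia against marrow and of 0.29 in the KO pair. In c-Kit+ marrow the highest ratios were those of Isg20 (0.31), Mndal (0.16) and Psmb8 (0.15) and among the lowest were those of Ifnlr1 (-0.71) and Lgals3bp (-0.26). In WT leukaemia against marrow 51 of 53 measured genes were higher (66.6% of all genes were), or 45 with median-ratio size factors (47.0% of all genes), led by Epsti1 (2.31), Irf5 (2.17) and Trim30d (2.09), and Isg20 (-1.04) and Lgals3bp (-0.48) were lower. In the KO pair 41 of 53 were higher (47.9% of all genes were), led by Ddx60 (1.80), Irf5 (1.78) and Socs1 (1.66), with Lgals3bp (-0.90), Mndal (-0.71) and Irf8 (-0.56) lowest.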

How the data were processed

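The authors deposited UMI counts per gene and cell, whole numbers that are not normalized, for 4 libraries. Per the submitters' processing notes they were made with Cell Ranger 7.1.0 and the mm10 build; the gene annotation and any cell selection are not given in the sources used here. Gene positions are from GENCODE M21 (GRCm38) and promoter windows from RefSeq (GRCm38.p6). UMIs were summed over kept cells and scaled to CPM with Python 3.11.15, numpy 2.4.6, scipy 1.17.1 and pandas 2.3.3. Doublets were called per library by Scrublet in scanpy 1.11.5 (expected rate 0.08), which marked 4.46%, 3.09%, 3.10% and 3.16% of cells; they were kept, and left out as an alternative. Log2 ratios used a pseudocount of 1 CPM over genes with a mean of at least 5 CPM. Intervals are exact: Poisson for sums, conditional binomial for ratios, Clopper-Pearson for shares. With 1 library per group no test was possible. Of 100 markers 99 were found; gates with under 50 cells are not described. The script was tested on simulated data. Values in every library are given for the 12 members of highest mean level and for each 2-fold member; pathway genes are named for their role or as the 3 highest and 3 lowest ratios, except 1 that is not reported here. The members and lists were chosen with earlier results of these data known.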

Additional observations from a re-analysis of the deposited data

How the results depend on the processing

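With 1 library per group no alternative measures variation between animals, and leaving out a replicate was not possible. No paired analysis was possible because each group has 1 library with the replicate number 1. No named member past 2-fold changed direction under a setting tried. In KO against WT leukaemia the median log2 ratio of the members was -0.31; it was -0.00028 with median-ratio size factors and 0.15 over members with a mean of at least 25 CPM. The 4 members 2-fold higher became 2 at that level, 2 with gates weighted alike, and, as alternatives chosen after seeing the data, 2 in late neutrophil-gated, 1 in monocyte-gated and 2 in progenitor-gated cells alone. The 2 members 2-fold lower became 0 with median-ratio size factors, a pseudocount of 5 CPM, a mean of 25 CPM, or maturing neutrophil-gated or progenitor-gated cells alone, and 5 in monocyte-gated cells alone. The share of all genes 2-fold lower also fell with median-ratio size factors, from 12.6% to 4.33%. In KO against WT c-Kit+ marrow the median of 0.04 became 0.013 with median-ratio size factors and 0.13 with equal weight per cell. In WT leukaemia against marrow the 12 members 2-fold higher became 6 with median-ratio size factors and 2 at 25 CPM. The share of all genes 2-fold higher also fell with median-ratio size factors, from 16.4% to 9.28%. In the KO pair the 8 became 5 with a pseudocount of 5 CPM and 2 at 25 CPM, and the 1 lower member became 2 with no filter on low values and 0 with gates weighted alike. The shares of all genes under the other settings and within single gates are not given, so those counts are not read against them.

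The share of cells with 5 or more members (2.12%, 2.57%, 6.86% and 5.84%) was 13.4%, 13.8%, 29.5% and 33.5% without thinning, 0.487%, 0.941%, 2.33% and 1.77% at 1000 UMIs, and, as an alternative added after seeing the data, 1.35%, 1.76%, 4.77% and 3.38% without Slfn2 and Slfn4. The monocyte over progenitor ratio of the members (3.17, 3.24, 4.17 and 3.17) was 4.25, 4.09, 4.88 and 3.57 with 1 more marker required, and 4.49 in WT leukaemia with doublets left out. The values above are the 38 that moved; the other 142 stayed within 1.5 times a count, within the interval of a share or ratio, or, for a median, within its order-statistic interval over the members. Of the log2 ratios of single named members, 197 moved outside their counting interval under an alternative and 99 did not. The cause of each change was not tested, except that stricter level filters leave fewer members (8 of 38 in KO against WT leukaemia). Depth limits the scarce members: Ifit3b and Ifi44 stood below 2 CPM in all 4 libraries.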
